A study of Mus musculus with 22 samples.

Results

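Large peritoneal macrophage-like cells were 321 of the 95843 cell barcodes that passed the filters in 22 mouse single-cell RNA libraries. They were chosen by their own counts of unique molecular identifiers (UMIs, tags that let each captured transcript be counted once). A barcode had to hold 200 or more detected genes, no more than 25% of its UMIs from mitochondrial genes, at least 1 UMI of Lyz2 (lysozyme, made by myeloid cells) and at least 1 UMI of 2 or more of 6 markers. The markers were Prg4, Timd4, F5, Garnl3, Selp and Naip1. They were set against the 14002 other barcodes with at least 1 UMI of Csf1r, the receptor for macrophage colony-stimulating factor. In the levels below, "selected" barcodes are those that met the rule.

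The study asked whether loss of Nalcn, a sodium leak channel, changes the release of cells into the blood of mice with and without tumours. All mice of these libraries carried Prom1-CreERT2, a Cre that tamoxifen activates in Prom1-expressing cells, and Rosa26ZSG, a green reporter (ZSG) that the Cre switches on. The ntCZC libraries held ZSG+ cells sorted from peripheral blood of tumour-free mice. The tissue libraries pooled kidney, liver, lung and stomach with epididymis (males) or uterus (females), and since the hashtag counts were not used here, no barcode was tied to an organ. The PBMC library held blood mononuclear cells of 1 male aged 120 days with no altered Nalcn allele.

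The strain with no altered Nalcn allele (wt), Prom1-CreERT2;Rosa26ZSG, gave ntCZC libraries 1 and 3 (males, 571 and 608 days old) and tissue libraries 1 to 5 (males of 571, 571 and 608 days and females of 611 and 654 days). The Nalcn-het strain gave ntCZC libraries 1 to 4 (males of 610 and 551 days, a female of 649 days and a male of 551 days) and tissue libraries 1 and 2 (males, 551 days). The Nalcn-null strain gave ntCZC libraries 1 to 4 (a female of 551 days, a male of 552 days, and females of 612 and 613 days) and tissue libraries 2 and 3 (a male of 552 and a female of 611 days). In another 2 tissue libraries (a male of 610 and a female of 647 days) the title and the strain named different genotypes. These entered no test between groups, but they are part of the pooled tissue values given over all 11 libraries (the 181 selected and the 12727 other Csf1r+ barcodes, and the classes drawn from them). No animal is identified in the labels. Each n is therefore a number of libraries, and p-values measure the spread between libraries.

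Large peritoneal macrophages are resident cells of the peritoneal cavity. They arise largely before birth, renew themselves locally and depend on the transcription factor Gata6 and on retinoic acid. They clear dying cells, secrete complement and clotting factors, and bind the phosphatidylserine of apoptotic cells through receptors such as Timd4. Small peritoneal macrophages, by contrast, derive from blood monocytes, present antigen on MHC class II and express Ccr2 and Retnla.

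The 6 markers have distinct roles. Prg4 encodes lubricin, a secreted lubricating proteoglycan (chr1:150449412-150466165, GRCm38, minus strand), and Timd4 the phosphatidylserine receptor Tim4 (chr11:46810800-46844332, plus strand). F5 encodes coagulation factor V (chr1:164151838-164220277, plus strand) and Selp the adhesion receptor P-selectin (chr1:164115264-164150026, plus strand). These 2 genes lie 1811 bases apart and both are also expressed by platelets, and Selp by endothelium. Garnl3 (chr2:32986224-33131654, minus strand) encodes a GTPase-activating domain protein, and Naip1 (chr13:100407764-100452869, minus strand) an inflammasome sensor of bacterial secretion needle protein. All 6 are protein-coding.

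The libraries differed widely in size, with 161541 to 2600526 UMIs over 50 to 621 barcodes in the ntCZC libraries, 8571019 to 139793927 UMIs over 1856 to 27857 barcodes in the tissue libraries and 1422144 UMIs over 752 barcodes in the PBMC library. Xist and Y-linked transcripts, by which of them was higher, went with the sex label in 22 of 22 libraries, but tissue Nalcn-null library 3, labelled female, also held Y-linked genes at 31.2 CPM (Xist at 1347), where the other female tissue libraries held at most 0.117 and the male ones 106 to 192 CPM. No 2 libraries of a group agreed within sampling noise, the lowest chi-square over genes being 2.11 per degree of freedom among 25 pairs. Of the selected barcodes, 14 of 140 in ntCZC libraries (10.0%) and 9 of 181 in tissue libraries (4.97%) carried a barcode sequence also found in another library, against 57 of 1248 (4.57%) and 548 of 12727 (4.31%) of the other Csf1r+ barcodes. No sequence was selected in 2 libraries.

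Pooled over libraries, the selected barcodes were a larger share of the selected and other Csf1r+ barcodes together in blood-sorted ZSG+ cells than in tissue. The rule did not ask for Csf1r, which was seen in 120 of the 140 selected ntCZC barcodes (85.7%) and in 100 of the 181 in tissue (55.2%). The ntCZC libraries held 140 of them beside 1248 other Csf1r+ barcodes, which was 10.1% of both together and 6.64% of the 2109 passing barcodes. The 9 tissue libraries with a genotype held 165 beside 10491 (1.55%), and all 11 held 181 beside 12727 (1.40%). The PBMC library held 0 of 27, which allows a share of up to 12.8%. In the same ntCZC libraries 2 or more of the 6 markers were seen in 0 of 267 B cells, which allows up to 1.37%, and in 0 of 130 T cells, which allows up to 2.80%, at median depths of 3187 and 4663 UMIs. In tissue, 3 of 10118 B cells (0.0297%), 6 of 7401 T cells (0.0811%), 44 of 20176 endothelial cells (0.218%) and 9 of 3287 fibroblasts (0.274%) held 2 or more. Of these, 2, 4, 25 and 6 also held Lyz2, as the rule asks. Median depths of the 4 classes were 1785.5, 1959, 1788 and 2359 UMIs, against 6113 in the selected tissue barcodes. All intervals and limits cover counting error only.

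By genotype, the ntCZC libraries held 2 selected of 324 in wt (0.617%), 63 of 561 in Nalcn-het (11.2%) and 75 of 503 in Nalcn-null (14.9%). Single libraries set these pooled values. In Nalcn-het the shares were 9 of 58 (15.5%, exact 95% interval 7.35 to 27.4), 9 of 40 (22.5%, 10.8 to 38.5), 43 of 69 (62.3%, 49.8 to 73.7) and 2 of 394 (0.508%, 0.0615 to 1.82) in libraries 1 to 4. In Nalcn-null they were 46 of 96 (47.9%, 37.6 to 58.4), 8 of 239 (3.35%, 1.46 to 6.49), 5 of 19 (26.3%, 9.15 to 51.2) and 16 of 149 (10.7%, 6.26 to 16.9). Within each genotype the intervals of the highest and the lowest library did not overlap. In wt library 1 it was 2 of 324 (0.617%, 0.0748 to 2.21), and wt library 3 had 11 passing barcodes, none with Csf1r.

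**Figure D1:**
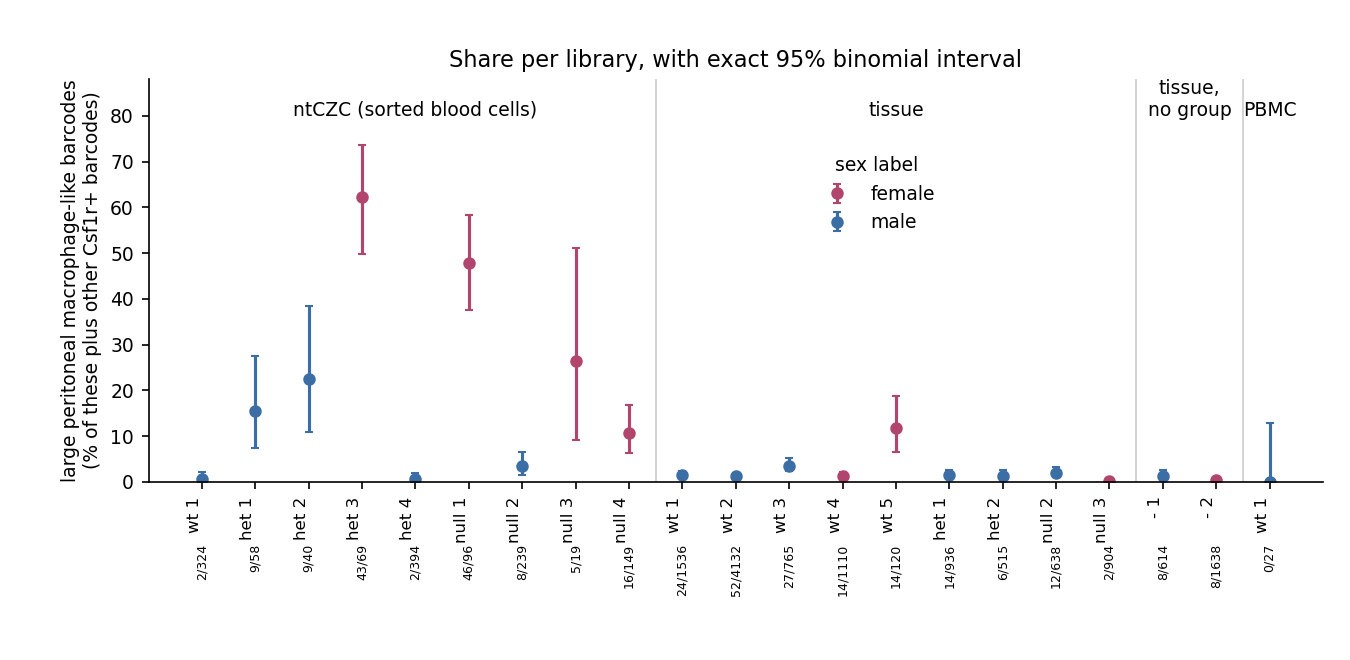
Share of large peritoneal macrophage-like barcodes in each library, as a percent of these plus other Csf1r+ barcodes, with exact 95% binomial intervals (counting error only). Colour gives the sex label and the fractions under the axis the counts behind each point. ntCZC shares run from 0.508% to 62.3%, and tissue shares from 0.221% to 3.53% apart from wt 5 at 11.7%.

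In tissue the pooled shares were 131 of 7663 in wt (1.71%), 20 of 1451 in Nalcn-het (1.38%) and 14 of 1542 in Nalcn-null (0.908%). The wt libraries 1 to 5 held 24 of 1536 (1.56%), 52 of 4132 (1.26%), 27 of 765 (3.53%), 14 of 1110 (1.26%) and 14 of 120 (11.7%). The Nalcn-het libraries 1 and 2 held 14 of 936 (1.50%) and 6 of 515 (1.17%), and the Nalcn-null libraries 2 and 3 held 12 of 638 (1.88%) and 2 of 904 (0.221%). Of these, wt library 5 stood highest, and 287 of its 1856 barcodes passed the filters. With 3 or more markers required its share was 1.68%, under wt library 3 at 1.72%.

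In ntCZC Nalcn-het libraries 1 to 3 and Nalcn-null libraries 1 to 4, Gata6 and Alox15, which the rule did not use, were each higher in the selected than in the other Csf1r+ barcodes, with the values given below. For Gata6 in Nalcn-null library 3 this rests on 1 of 5 selected barcodes. The counts of the 6 markers describe the choice itself. In ntCZC, 113 of 140 selected barcodes held 3 or more of the 6 markers (80.7%) and 131 held Prg4 (93.6%). In tissue, 56 of 181 held 3 or more (30.9%) and 67 held Prg4 (37.0%), and 33 of the 181 rested on F5 and Selp alone, against 2 of the 140 in ntCZC. Cut to 1000 UMIs per barcode before the rule was applied, 78 ntCZC and 54 tissue barcodes met it.

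**Figure D2:**
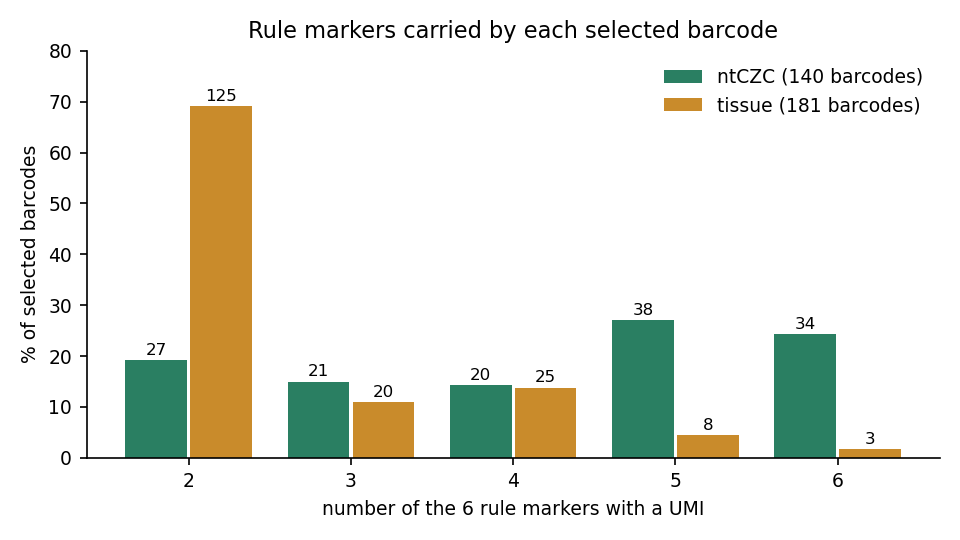
Number of the 6 markers with at least 1 UMI in each selected barcode, as a percent of the 140 ntCZC and 181 tissue barcodes. Counts for 2, 3, 4, 5 and 6 markers were 27, 21, 20, 38 and 34 in ntCZC and 125, 20, 25, 8 and 3 in tissue.

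In 5 libraries with a genotype the selected barcodes held no Prg4 UMI, which, as Prg4 is a gene of the rule, only describes which markers chose them. Of the genes outside the rule, Alox15 stood at 103 CPM in ntCZC wt library 1, 12.9 in tissue wt library 5 and 0 in the other 3. The 2 selected barcodes of ntCZC wt library 1 and the 2 of ntCZC Nalcn-het library 4 held exactly 2 markers each, with no UMI of Gata6 or of the complement gene C1qa. Those of wt library 1 held 75 UMIs of S100a8 and 114 of S100a9, which encode the calprotectin subunits abundant in neutrophils. Tissue wt library 1 (24 selected) held 158 UMIs of the epithelial adhesion gene Epcam, and 8 of the 24 held 2 or more epithelial, 7 endothelial and 4 C1q markers. Tissue Nalcn-het library 1 (14 selected) held 1 barcode with Csf1r, 136 Epcam UMIs and 2 C1qa UMIs. In tissue wt library 5, 13 of 14 held Timd4, 12 held 2 or more markers of Kupffer cells (the resident macrophages of the liver) and 12 held 2 or more C1q genes. In ntCZC, 8 of 9, 3 of 9 and 27 of 43 selected barcodes in Nalcn-het libraries 1 to 3 also held 2 or more Kupffer markers. In Nalcn-null libraries 1 to 4 these were 25 of 46, 5 of 8, 3 of 5 and 7 of 16. In the other tissue libraries with 10 or more selected barcodes such barcodes were fewer, from 1 of 14 (Nalcn-het 1) to 3 of 12 (Nalcn-null 2). In tissue wt library 5, Cxcl13 was seen in 10 of 14 and Vsig4 in 12 of 14, Vsig4 (608 CPM) and Saa3 (12632 CPM) were the highest of the wt tissue libraries, and Gata6 had no UMI. The Kupffer-defining lectin Clec4f had 23 UMIs there, all in 1 barcode. The shares by kind and by genotype and the gene contrasts of tissue barcodes were also computed without these 5 libraries, an alternative chosen after the values were seen, and the sex comparison only without each library singly.

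Beside the rule, the values on either side of its limit of 2 markers were as follows. In ntCZC, the 109 Csf1r+ barcodes with exactly 1 marker held Alox15 at 11.2 CPM (UMIs of the gene per 1e6 UMIs), Icam2 at 26.6 CPM and Cxcl13 at 1.40 CPM, and 14.7% held C1qa. The 27 with exactly 2 markers held Alox15 at 180 CPM, Icam2 at 86.4 CPM and Cxcl13 at 130 CPM, 74.1% held C1qa, and none held Gata6. Those with 6 markers held Gata6 at 85.8 CPM and Cxcl13 at 4443 CPM. Median depth was 5914 UMIs at 1 marker, 1770 at 2, 2105 at 3 and 17086 at 6. From 1 to 2 markers depth fell while Alox15, Icam2 and Cxcl13 were higher and Gata6 went from 2.80 to 0 CPM. The part of depth was not tested. In tissue, Alox15 stood at 0.810, 15.6, 298 and 1014 CPM at 1, 2, 3 and 4 markers, and the endothelial cadherin Cdh5 at 77.7, 342, 99.4, 124 and 360 CPM at 1 to 5 markers.

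The share of selected barcodes was higher on average in ntCZC than in tissue libraries, though not in wt. It averaged 21.1% ± 21.6 (SD, n = 9 libraries, since 1 ntCZC library had no Csf1r+ barcode) in ntCZC against 2.67% ± 3.48 (SD, n = 9) among tissue libraries, which differed by 18.4 percentage points (exact two-sided permutation test, p = 0.0106, Benjamini-Hochberg p = 0.0423 over 4 comparisons of shares). The ranges overlapped, from 0.508% to 62.3% and from 0.221% to 11.7%. The selected barcodes and this comparison were chosen with earlier results of these data known, which the p-value does not take into account. Without the 5 libraries above the difference was 25.4 points, but that choice removed the 2 lowest ntCZC shares and the highest tissue share, so a larger difference follows from it. Genotype moved with the kind of library, since 8 of the 9 ntCZC libraries were Nalcn-het or Nalcn-null and 5 of the 9 tissue libraries wt. Averaged within genotype, an alternative chosen after the values were seen, the difference was 13.9 points and no longer passed (exact permutation over 1350 arrangements, p = 0.11). It was 23.9 points in Nalcn-het and 21.03 in Nalcn-null, while in wt the 1 ntCZC library (0.617%) lay below each of the 5 tissue libraries (1.26% to 11.7%). With 3 or more markers required, that ntCZC library stood at 0% and the wt tissue libraries at 0.0655% (wt 1) to 1.72% (wt 3). Cut to 1000 UMIs, it stood at 0% and the wt tissue libraries at 0% (wt 5) to 4.31% (wt 3). Among the libraries with a share, in 3 instances an ntCZC and a tissue library had the same genotype, number, sex and age in days, and wt 3 also matched but its ntCZC library had no Csf1r+ barcode. They may come from the same mice, which the labels do not say and the permutation does not take into account. ntCZC was higher in 2 of these 3, at 22.5% against 1.17% (Nalcn-het 2) and 3.35% against 1.88% (Nalcn-null 2), and lower in wt 1 (0.617% against 1.56%). The sort for ZSG in the one and the dissociation of whole organs in the other cannot be told apart from tissue of origin.

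The genotypes could not be separated by this share. Nalcn-null averaged 22.1% ± 19.7 (SD, n = 4) and Nalcn-het 25.2% ± 26.4 (SD, n = 4), a difference of -3.13 points (exact permutation p = 0.8, adjusted p = 0.8, smallest possible 0.0286), and without Nalcn-het library 4 the difference was -11.4. Nalcn-het and Nalcn-null together averaged 23.6% ± 21.6 (SD, n = 8) against 0.617% in the single wt library with Csf1r+ barcodes (exact permutation p = 0.444, adjusted p = 0.593, smallest possible 0.111), so wt blood rested on 1 library whose 2 selected barcodes held no Prg4. In tissue, Nalcn-het and Nalcn-null averaged 1.19% ± 0.709 (SD, n = 4) and wt 3.86% ± 4.47 (SD, n = 5), a difference of -2.66 points (exact permutation p = 0.27, adjusted p = 0.54), which was -0.712 without tissue wt library 5 and -0.927 (exact permutation p = 0.4) without wt 1, wt 5 and Nalcn-het 1.

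Sex moved with the share in ntCZC. The 4 female libraries averaged 36.8% ± 22.8 (SD, range 10.7 to 62.3) and the 5 male libraries 8.50% ± 9.97 (SD, range 0.508 to 22.5), a difference of 28.3 points (exact two-sided permutation test, p = 0.0476, smallest possible 0.00794). This comparison was chosen after the values were seen and was not corrected for others. With each library left out in turn the difference was 19.8 to 37.0 points, and the exact permutation p, 0.0179 without Nalcn-null 4, was 0.0536 to 0.114 without any one of the other 8. Nalcn-null held 3 female libraries and Nalcn-het 1. Averaged within sex, Nalcn-null minus Nalcn-het was -21.7 points (exact permutation over 16 arrangements, p = 0.188), -34.0 among females and -9.49 among males.

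Many of the other genes known to mark large peritoneal macrophages, which the rule did not use, had most of their ntCZC UMIs in the selected barcodes. Of the UMIs of each gene in the 2109 passing ntCZC barcodes, the selected ones held 99.9% of Cxcl13, 99.2% of Wnt2, 97.3% of Tgfb2, 97.1% of Alox15, 96.2% of Saa3, 94.7% of Gata6 (107 of 113 UMIs) and 94.2% of Slpi. Over all genes they held 14.7% of the UMIs, and of Csf1r 13.2%. The shares were lower, but above that of all genes, for Icam2 (80.6%), Serpinb2 (77.0%), Fn1 (69.8%), Rarb (65.6%), Apoc1 (63.8%), F10 (58.7%), Adgre1 (54.4%) and Bhlhe40 (29.0%). This contrast is the one that chose the barcodes, so these values, and the edgeR calls on the same contrast that follow, are given as a description only.

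The other Csf1r+ barcodes were split by 2 or more markers of C1q macrophages (C1qa, C1qb, C1qc), nonclassical monocytes (Treml4, Ace, Cd300e, Eno3, Spn) or classical monocytes (Ly6c2, Ccr2, Chil3 and Plac8 among them). In ntCZC there were 48 C1q+, 904 nonclassical-like, 211 classical-like and 85 unclassed barcodes. Gata6, the lineage factor, stood at 61.7 CPM in the selected, 9.16 in the C1q+ and 0 in both monocyte classes. Alox15, a lipoxygenase that oxidises phospholipids, stood at 1815, 158, 1.12 and 0 CPM in that order. Cxcl13, a B-cell-attracting chemokine, stood at 3324, 2.29, 0.224 and 0.632 CPM, the last 3 values resting on 1 UMI each.

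Of the small peritoneal macrophage and dendritic list, H2-Aa and Ccr2 were lower in the selected ntCZC barcodes than in each other class, while Retnla was lower than in the C1q+ class and higher than in both monocyte classes. H2-Aa, an MHC class II chain, stood at 506 CPM in the selected ntCZC barcodes, 4540 in the C1q+, 1188 in the nonclassical-like and 1572 in the classical-like. Retnla, a secreted protein of alternatively activated macrophages, stood at 2858 CPM in the selected and 14320 in the C1q+ barcodes, and at 0.897 and 0.632 in the monocyte classes. Ccr2, the receptor that draws monocytes out of the marrow, stood at 36.9, 738, 157 and 1011 CPM. The classical-like class was defined in part by Ccr2. The pooled Retnla value mixes unlike libraries, with means of 182 CPM in the selected barcodes of Nalcn-null (n = 4) and 5131 in Nalcn-het (n = 3). In the paired fit of the 7 libraries with 5 or more selected barcodes, Retnla was not called against all other Csf1r+ barcodes (log2 0.30 ± 1.38, SE). Csf1r stood at 387 CPM in the selected and 739 in the nonclassical-like barcodes, but the latter had to hold Csf1r and the selected did not, so no direction is read from it.

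At equal depth the order of Alox15, Cxcl13, H2-Aa and Retnla between these 2 sets held. Among barcodes cut to 1000 UMIs (127 selected and 44 C1q+ ntCZC barcodes, with 13 and 4 shallower ones left out), Alox15 was seen in 66.9% of selected and 2.27% of C1q+ barcodes, and Cxcl13 in 48.8% and 2.27%. H2-Aa was seen in 22.8% and 84.1% and Retnla in 20.5% and 43.2%. C1qa was seen in 89.8% of the selected. Uncut, the selected shares were 82.9% for Alox15, 57.1% for Cxcl13, 53.6% for H2-Aa and 91.4% for C1qa, at a median of 12848 UMIs against 8078.5 in the C1q+ class. Gata6 was seen in 4.72% at 1000 UMIs and in 40.7% uncut, too few for a reading at equal depth.

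**Figure D3:**
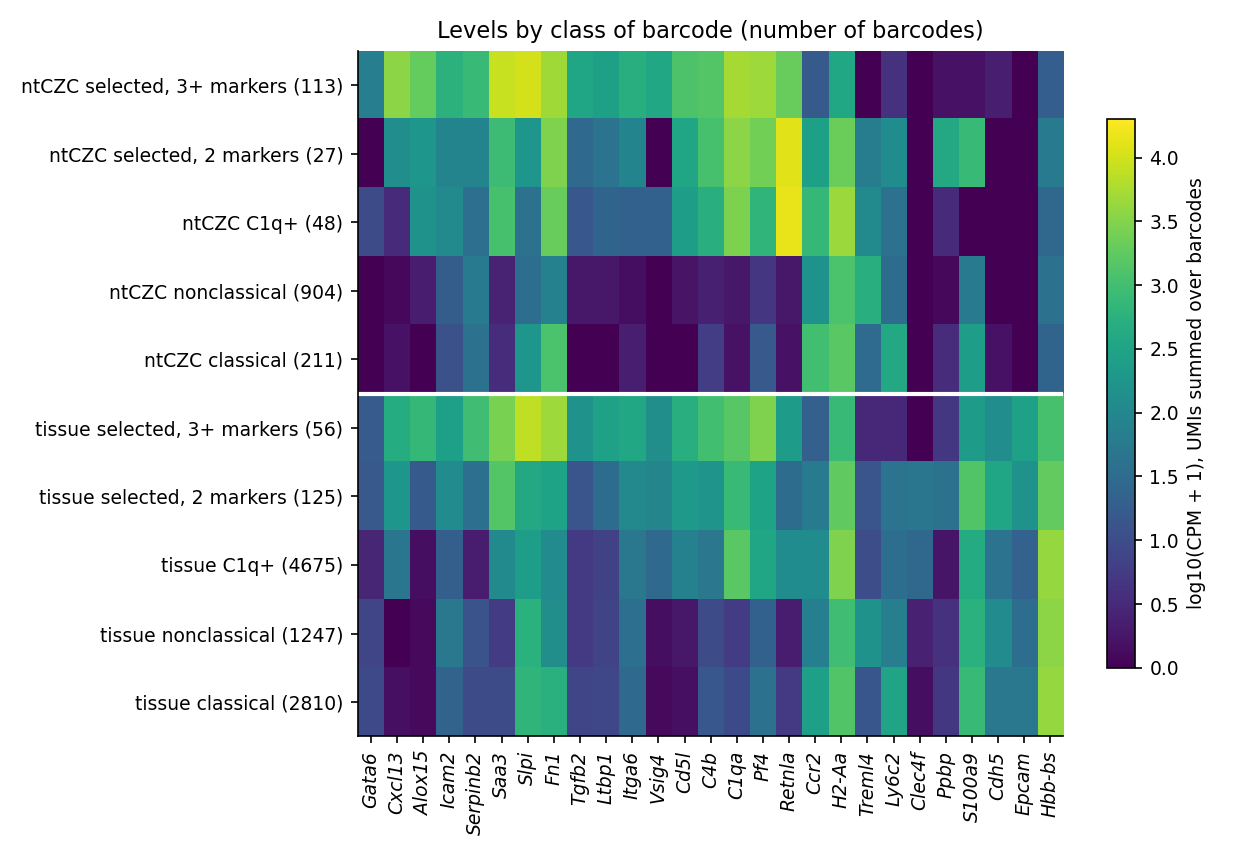
Level of each gene (log10 of CPM + 1, UMIs summed over barcodes) in the selected barcodes, split by 3 or more and exactly 2 markers, and in the classes of other Csf1r+ barcodes, for ntCZC above the white line and tissue under it. In ntCZC, Cxcl13 stands at 3602, 130 and 2.29 CPM and H2-Aa at 363, 2153 and 4540 CPM in the barcodes with 3 or more markers, with 2, and in the C1q+ class.

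The level of these genes was similar in kind across the 7 ntCZC libraries with 5 or more selected barcodes (Nalcn-het 1 to 3 and Nalcn-null 1 to 4, values in that order). Alox15 stood at 1038, 2631, 1574, 2140, 1660, 1997 and 1975 CPM in the selected and at 14.6, 0, 7.14, 10.96, 1.80, 0 and 84.8 in the other Csf1r+ barcodes. Gata6 stood at 38.6, 113, 49.3, 66.6, 50.6, 16.6 and 84.4 CPM, and at 0 in the others of 5 of the 7 libraries. For both genes every selected value lay above every value of the others. In Nalcn-null library 3, however, Gata6 was seen in 1 of 5 selected barcodes, beside 14 others, too few to read an order there. Prg4, used by the rule, stood at 2247, 4631, 4465, 6221, 7281, 5059 and 5908 CPM.

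Other genes varied more between libraries. Cxcl13 stood at 1568, 575, 3916, 6018, 2436, 4593 and 696 CPM, with at most 9.16 in the others. Slpi, a secreted protease inhibitor, stood at 1182, 24588, 3924, 17662, 13054, 17140 and 2738 CPM, against 5.33 to 221 in the others. Saa3, an acute-phase serum amyloid, stood at 19640, 11472, 7109, 8742, 8326, 2696 and 1293 CPM, against 4.80 to 788. Slpi thus spanned more than an order of magnitude among selected barcodes of different libraries, with both its lowest and its highest value in Nalcn-het libraries, and Saa3 was highest in Nalcn-het libraries 1 and 2. Vsig4, a complement receptor, ranged from 0 (Nalcn-het 2) to 697 CPM (Nalcn-null 1).

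Fn1, Serpinb2 and F10 were high in each of the 7 libraries. Fn1, fibronectin, stood at 5323, 8444, 3173, 2667, 8225, 4876 and 6813 CPM, against 69.3 to 1450 in the others. Serpinb2, an inhibitor of plasminogen activators, stood at 342, 389, 834, 678, 733, 1165 and 955 CPM, against 9.16 to 73.8. F10, coagulation factor X, stood at 342, 510, 298, 643, 742, 449 and 422 CPM, against 58.7 to 110. For Fn1, Serpinb2 and F10 the selected and the other values did not overlap. Of the adhesion genes, Icam2 stood at 321 to 1033 CPM against 10.7 to 58.5, and the laminin-receptor chain Itga6 stood at 260 to 1085 CPM against 0 to 35.7.

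**Figure D4:**
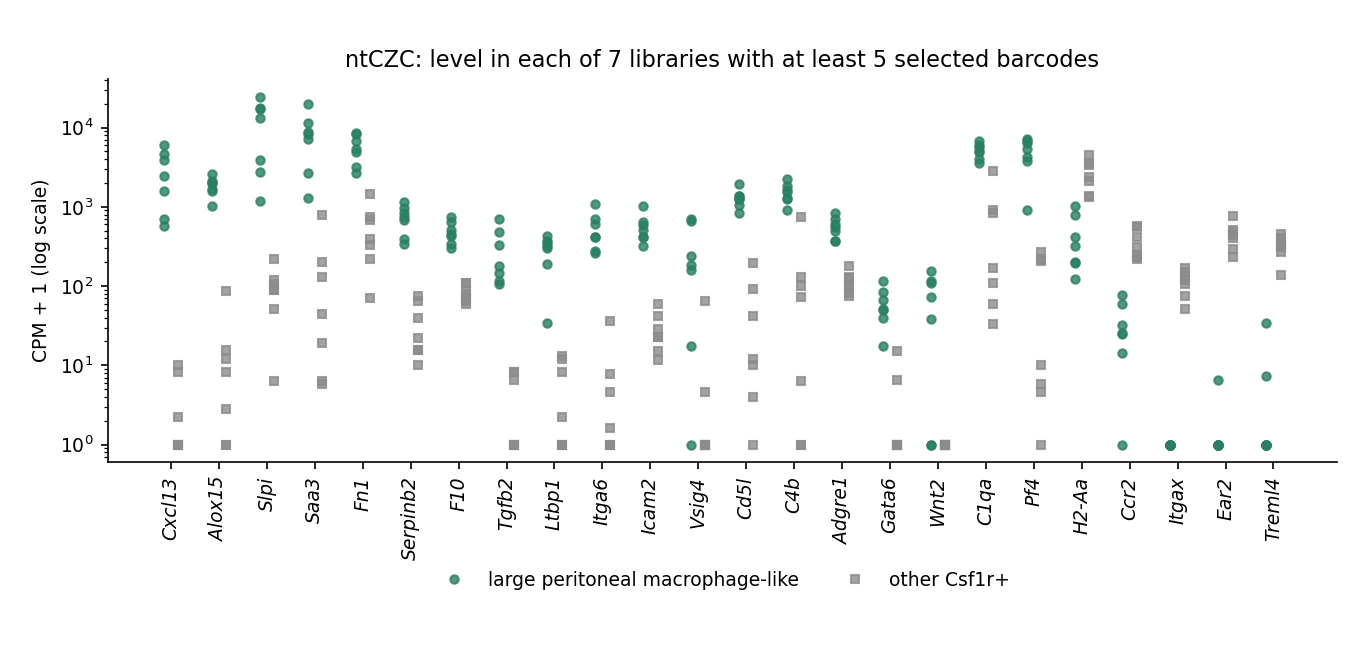
Level of each gene in the selected and in the other Csf1r+ barcodes of each of the 7 ntCZC libraries with 5 or more selected barcodes (CPM + 1, log axis, 1 point per library). Alox15 lies between 1038 and 2631 CPM in the selected and at most at 84.8 in the others, while H2-Aa lies lower in the selected, at 121 to 1027 against 1316 to 4459.

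Across all genes, UMIs were summed per library and set in pairs, selected against other Csf1r+, in the 3 ntCZC libraries with 10 or more of each (Nalcn-het 3, Nalcn-null 1 and Nalcn-null 4, all female), with the genes of the rule left out. By edgeR's quasi-likelihood test, 306 genes were higher (6.55% of the 4675 tested) and 226 lower (4.83%), 532 in all (11.4%), at an adjusted p under 0.05. Of the 20 other large peritoneal macrophage genes, 19 were tested, 17 were called higher and 0 lower, with a median log2 difference of 4.81 against -0.01 over all genes. The 2 not called were Rarb (1.72 ± 0.73, SE) and Bhlhe40 (0.84 ± 0.26), a retinoic acid receptor and a transcription factor of macrophage proliferation, and Apoc1 was not tested. Without Nalcn-null library 1 no gene was called (733 at an unadjusted p under 0.05). In the 7 libraries with 5 or more, 597 were higher (19.0%) and 575 lower (18.3%), 1172 in all (37.4% of 3135), and of the large peritoneal macrophage genes 14 of 14 tested were called higher.

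The largest differences among genes at 50 CPM or more in that fit were in Cxcl13 (4845 UMIs in the selected and 1 in the others), Wnt2, a secreted signalling protein (94 and 0 UMIs, at least 29.3-fold higher), and Tcim, a transcriptional and immune response regulator (96 and 1 UMIs). Next came Alox15 (log2 6.20 ± 0.66, SE, n = 3 libraries), Slpi (6.06 ± 0.65), Tgfb2, a transforming growth factor (5.97 ± 0.41), and the serine protease gene Prtn3 (5.87 ± 0.61). Itga6 (5.64 ± 0.67), the neutrophil-attracting chemokine Cxcl1 (5.56 ± 0.86) and Saa3 (5.52 ± 0.82) completed the 10. Each was higher in 3 of 3 libraries. Of the remaining members of the list, Icam2 (4.75 ± 0.32), Ltbp1, which binds latent TGF-beta (4.96 ± 0.36), and Gata6 (3.98 ± 0.59) were among the higher ones.

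Of the 10 genes with the largest differences on the lower side, 4 were among the nonclassical monocyte markers. Ear2, a ribonuclease, had 0 UMIs in the selected and 466 in the others (at least 166-fold lower), Cd300e 0 and 266 (at least 94.7-fold), Cyfip2 0 and 161 (at least 57.3-fold) and Itgax, the integrin CD11c, 0 and 131 (at least 46.6-fold). Ace had 3 and 517 UMIs, Treml4 3 and 420, Spn 2 and 337, Grk3 2 and 267, Ltb4r1 1 and 150 and Ly6i 1 and 115. Those 4, Treml4, Ace, Cd300e and Spn, defined in part the nonclassical-like class. Over all ntCZC libraries it made up 904 of the 1248 other barcodes, of which the libraries of this fit held 26 (Nalcn-het 3), 50 (Nalcn-null 1) and 133 (Nalcn-null 4).

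Of 13 complement genes tested, 11 were called higher and 1 lower (Itgax), with a median log2 of 2.98. They included the C1q chains C1qa (3.01 ± 0.64, SE), C1qb (3.05 ± 0.53) and C1qc (3.73 ± 0.54), C4b (2.98 ± 0.52), the alternative-pathway genes Cfb (3.31 ± 0.68) and Cfp (2.90 ± 0.73), and the receptors C3ar1 (3.08 ± 0.53) and C5ar1 (1.18 ± 0.29). In the 7 libraries C1qa stood at 3587 to 6863 CPM in the selected, and at 32.4 to 2850 in the others. Of 6 coagulation and fibrinolysis genes tested 4 were higher, among them Serpinb2 (4.81 ± 0.45), F7 (2.97 ± 0.71) and F10 (2.49 ± 0.32), and 0 lower. The lists share genes, so their counts here and in tissue are not separate. Serpinb2, F10, C4b, Vsig4 and the adhesion genes Itga6 and Icam2 are also on the large peritoneal macrophage list. C1qa is on both the complement list and that of efferocytosis and scavenger receptors.

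In the other lists, calls went in both directions or were few. Of 10 efferocytosis and scavenger receptor genes tested, C1qa, Msr1 (3.20 ± 0.30, SE) and Stab1 were called higher and Scarb1 lower (-1.57 ± 0.31). The adhesion list gave 6 higher (Itga6, Itgam, Itgb2, Icam2 and Itgb7 among them) and 2 lower of 13, the lower ones being the leukocyte integrin chains Itgal (-5.54 ± 0.36) and Itga4 (-2.04 ± 0.28). Itgal stood at 0 to 42.1 CPM in the selected barcodes of the 7 libraries and at 193 to 864 in the others. Of 10 inflammasome genes, the adaptor Pycard (2.12 ± 0.35) and the sensor Nlrp3 (1.55 ± 0.30) were higher and the cytokine Il1b lower (-4.16 ± 0.48). Lipid handling gave 1 higher (Fabp7, 5.21 ± 0.42) and 2 lower (Pparg, Abcg1) of 12, and the retinoid genes 0 of 5 and proliferation 0 of 1. In the 7-library fit lipid handling instead gave 7 higher (Fabp5, Fabp4, Abca1, Plin2, Apoe, Fabp7 and Npc2) and 0 lower of 11, with Abcg1 not called, adhesion 9 higher and 3 lower of 12, inflammasome 3 and 2 of 8, efferocytosis 4 and 1 of 6, retinoid genes 1 (Dhrs3) and 1 (Rara) of 2, and small peritoneal macrophage and dendritic genes 0 and 5 of 7. Of 8 small peritoneal macrophage and dendritic genes, 5 were lower and 0 higher, Ccr2 (-3.04 ± 0.34), H2-Aa (-2.14 ± 0.30), H2-Ab1 (-2.26 ± 0.29), H2-Eb1 (-2.58 ± 0.27) and Cd74 (-2.05 ± 0.36).

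Markers of other cells differed by lineage in the selected ntCZC barcodes. The Kupffer cell list summed to 1862 CPM against 47.2 in the other Csf1r+ barcodes, and 78 of 140 (55.7%) held 2 or more of its 7 genes, against 0.962% of the others. Of these genes, Cd5l (2024 UMIs in the selected) and Vsig4 (603 UMIs) are also on the large peritoneal macrophage list, so these values do not tell the lists apart. T cell, NK cell, mesothelial and fibroblast markers had 0 UMIs in the 140, as did Clec4f. Endothelial markers summed to 6.34 CPM (23.4 in the other Csf1r+ barcodes). Neutrophil markers summed to 210 CPM (1141 in the others), but their medians by library were close, at 92.7 and 103 CPM. Of the 140, 16 (11.4%) held 2 or more neutrophil markers, against 4.33% of the others. The platelet list reached 4562 CPM through Pf4, a chemokine of platelets and of some macrophages, of which the selected barcodes of the 7 libraries held 915 to 7138 CPM. The platelet genes Gp9, Gp1bb and Treml1 had 0 UMIs in the 113 barcodes with 3 or more markers and 25, 5 and 24 UMIs in the 27 with exactly 2. Of the 7 platelet genes, 2 or more were held by 17 of the 140 (12.1%) and 15 of the 113 (13.3%), against 1.44% of the others. Nalcn and Prom1 had 0 UMIs in the selected and in the other Csf1r+ ntCZC barcodes, which at this depth does not show absence of expression.

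The selected ntCZC barcodes were not uniform. Timd4 was seen in 89 of 140 (63.6%), from 33.3% in Nalcn-het library 1 to 81.2% in Nalcn-null library 4 among the 7 libraries with 5 or more selected, and in 0 of 2 in each of the other two. Prg4 was at 0 in 9 barcodes, Alox15 in 24, Slpi in 44 and Cxcl13 in 60. Prg4 had a median of 40.8 UMIs per 10000, with a 10th percentile of 2.25 and a 90th of 98.7, while Slpi had a median of 5.97 and a 90th percentile of 227. Mki67, a marker of cycling cells, was seen in 41, of which 20 were in Nalcn-het library 3 and 16 in Nalcn-null library 1. Top2a, also on the proliferation list, was seen in 9, with 6 in Nalcn-null library 1. In Nalcn-het library 3 it was seen in 0 of 43. Cut to 1000 UMIs, Mki67 was seen in 5.51% of 127 selected and 2.27% of 44 C1q+ ntCZC barcodes. Uncut, these shares were 29.3% and 8.33%, so they depend on depth. The share of cycling cells was not tested.

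A small subset carried genes of small peritoneal macrophages. In 9 of the 140, MHC class II genes exceeded 100 UMIs per 10000, with 5 of the 9 in Nalcn-het library 3, 2 in Nalcn-het library 1, and 1 each in Nalcn-null libraries 1 and 4. These 2 Nalcn-het libraries were also the highest in Retnla, at 7376 and 7791 CPM, so that the pooled values mix library and subset. The 9 held Retnla at 19683 CPM, Folr2 at 940 CPM, Prg4 at 1353 CPM and Cxcl13 at 207 CPM. The other 131 held Retnla at 1264, Folr2 at 94.7, Prg4 at 5476 and Cxcl13 at 3619 CPM. The 9 averaged 3.00 markers of the rule and the 131 averaged 4.31, and 5 and 108 of them held 3 or more. Retnla was seen in 49 of the 140, with 28 of these in Nalcn-het library 3 and 6 among the 9 of Nalcn-het library 1.

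In tissue the selected barcodes were mixed with other lineages. Endothelial markers summed to 1092 CPM in the 181 (60.5 to 2835 by library, and 272 in the other Csf1r+ barcodes), and 46 of the 181 held 2 or more of them. Epithelial markers summed to 830 CPM (0 to 2155 by library, 314 in the others), with 28 of 181 at 2 or more, and neutrophil markers to 2011 CPM (25.7 to 4178 by library, 1210 in the others). The medians by library of endothelial, epithelial and neutrophil markers were 590, 263 and 726 CPM in the selected and 247, 385 and 1076 in the others. For the last 2 the direction thus differed from the pooled one. C1q genes were seen at 2 or more in 93 of 181 (51.4%). Among the 56 with 3 or more markers the same counts were 53 for C1q, 13 for endothelial and 6 for epithelial markers, and Clec4f was at 0. Scrublet, which scores barcodes that look like 2 cells, marked 50 of the 181 (27.6%) and 2634 of the 12727 other Csf1r+ barcodes (20.7%), with 24 of 52 in tissue wt library 2. The part of these lineages in the tissue values was not tested.

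Those 56 held other genes of the large peritoneal macrophage list above the tissue C1q+ class. Pooled, they held Slpi at 7625 CPM, Fn1 at 4613, Serpinb2 at 949, Alox15 at 716 and Cxcl13 at 462 CPM, against 245, 116, 1.17, 0.421 and 47.8 in the 4675 tissue C1q+ barcodes. The 125 with exactly 2 markers held Alox15 at 15.6 CPM and Fn1 at 317. Cut to 1000 UMIs, Alox15 was seen in 58.9% of the 56 and 0.0462% of 4328 tissue C1q+ barcodes, Serpinb2 in 55.4% and 0.0924% and Slpi in 82.1% and 9.75%.

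By library (wt 1 to 5, Nalcn-het 1 and 2, Nalcn-null 2 and 3), Prg4 in the selected tissue barcodes stood at 0, 928, 2305, 1994, 0, 0, 657, 1392 and 1260 CPM. Alox15 stood at 0, 328, 645, 790, 12.9, 0, 488, 363 and 630 CPM, with at most 4.66 in the other Csf1r+ barcodes. Saa3 stood at 12.1, 1129, 396, 1956, 12632, 3.50, 1482, 1210 and 630 CPM. The libraries with no Prg4 were thus also the 3 with at most 12.9 CPM of Alox15, and 1 of them, wt 5, was the highest in Saa3, where the other Csf1r+ barcodes stood at 3574 CPM.

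Across genes in the 7 tissue libraries with 10 or more selected barcodes (wt 1 to 5, Nalcn-het 1 and Nalcn-null 2), 152 were higher than in the other Csf1r+ barcodes (2.18% of 6971) and 121 lower (1.74%), 273 in all (3.92%), by edgeR at an adjusted p under 0.05. Of 14 large peritoneal macrophage genes tested 5 were higher, Saa3 (log2 3.93 ± 0.81, SE, n = 7), Ltbp1 (3.92 ± 0.60), Cxcl13 (3.62 ± 0.88), Icam2 (2.69 ± 0.28) and Itga6 (2.04 ± 0.36), with a median of 2.18 against -0.04 over all genes. Among the alternatives run, the call of Cxcl13 held in 9 and was lost in 8, and that of Saa3 in 11 and 6. Ltbp1 and Icam2 held in 17, and Itga6 held in 16 and was lost in 1. C4b, not called in this fit, was called in 10 and not in 7, Cd5l in 7 and not in 10, Fn1 in 7 and not in 11, and Slpi in 4 and not in 14. With Scrublet doublets left out, 69 of 6707 genes were called, 28 higher and 41 lower. Without wt 1, wt 5 and Nalcn-het 1, 232 were higher (3.08% of 7540) and 140 lower (1.86%), 372 in all (4.93%), and 14 of 17 large peritoneal macrophage genes were higher. They included Alox15 (10.17 ± 0.41), Serpinb2 (7.16 ± 0.32), Saa3 (5.60 ± 0.37), Cd5l (4.48 ± 0.34), C4b (4.25 ± 0.26) and Fn1 (3.77 ± 0.26). These 4 libraries were kept because they held Prg4, so this count was in part fixed by that choice.

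By size, and with the same sign in 7 of 7 libraries, the higher genes of the 7-library fit included Saa3, the leucine-rich glycoprotein Lrg1 (2.91 ± 0.40, SE), the cytokine Il6 (2.76 ± 0.39), Icam2, the cell-cycle inhibitor Cdkn2a (2.50 ± 0.36), the endothelin receptor Ednrb (2.49 ± 0.44), the transcription factor Tbx3 (2.45 ± 0.48), the hyaluronan receptor Lyve1 (2.28 ± 0.31) and the cyclooxygenase Ptgs1 (2.00 ± 0.26). The lower ones were Jchain, Ear1, Cidec, Ear2, Chil3, Krt79, Fabp1, Spp1, Mgl2 and Inhba, from -3.87 to -2.58. Ear1, Ear2, Chil3, Krt79 and Fabp1 were among the markers listed for alveolar macrophages, the resident macrophages of the airspace. Of the other lists, efferocytosis gave 1 lower (Mertk, -1.31) of 13, inflammasome 1 lower (Il18) of 10, complement 1 lower (Itgax) of 12, lipid handling 2 lower (Lpl and Abcg1) of 12, adhesion 2 higher (Itga6, Icam2) and 2 lower (Cd9, Itgal) of 14 and small peritoneal macrophage and dendritic genes 1 lower (Ccr2) of 10, and the coagulation, retinoid and proliferation lists gave 0. Without wt 1, wt 5 and Nalcn-het 1 several of these counts differed. Complement then gave 6 higher (Cfp, Vsig4, C1qc, Itgam and C4b among them) and 1 lower of 12, lipid handling 1 higher (Fabp7) and 7 lower of 14, adhesion 5 higher and 2 lower of 14, and small peritoneal macrophage and dendritic genes 0 higher and 6 lower of 11. Efferocytosis gave 1 higher (Msr1) and 1 lower (Mfge8) of 13, with Mertk not called, and coagulation (Serpinb2) and proliferation (Mki67) 1 higher each. In all, 66 genes were called in both the 3-library ntCZC and the 7-library tissue contrast, of 4550 tested in both, all with the same sign. Both contrasts rest on the same rule, so the shared sign is in part fixed by that choice and is given as a description only.

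Selected barcodes of ntCZC and of tissue were then compared with each other, a contrast the rule did not use. Summed per library (3 ntCZC against 7 tissue libraries, sex as a covariate), 11 genes were higher in ntCZC (0.221% of 4977) and 48 lower (0.964%), 59 in all (1.19%), by edgeR at an adjusted p under 0.05. Higher were Pdlim2, a cytoskeletal adaptor (log2 4.66 ± 0.90, SE, edgeR adjusted p = 0.0338), the kinase Map3k8 (3.47 ± 0.67, adjusted p = 0.0338), Ddost of the glycosylation complex (3.04 ± 0.50, adjusted p = 0.0196), Klf9 (2.47 ± 0.44, adjusted p = 0.0269) and the MHC class I gene H2-D1 (1.87 ± 0.38, adjusted p = 0.0365). H2-D1, for example, averaged 4830 CPM in ntCZC and 1759 in tissue. None of these 5 was called without wt 1, wt 5 and Nalcn-het 1 of tissue, where 0 genes were higher and 23 lower.

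On the lower side, 4 of the named genes had no UMI in ntCZC. Timp3 (0 UMIs in ntCZC and 532 in tissue, at least 129-fold lower), Miox (0 and 232, at least 56.1-fold), Atp1b1 (0 and 201, at least 48.6-fold) and Tmem27 (0 and 153, at least 37.0-fold) were those, and Sema3c had 1 and 592 UMIs. Those 4 passed the filter on low counts only through the tissue libraries, where they were high, so their calls are given as a description. The same holds nearly for the genes with 1 to 3 UMIs in ntCZC (Sema3c, Igkc, Ighm and S100a9). Miox, an inositol oxygenase, and Tmem27 are known from the kidney proximal tubule. The immunoglobulin genes Igkc (3 and 246 UMIs) and Ighm (1 and 148) were also lower. The chemokine Ccl4 (-7.54 ± 1.23, SE, adjusted p = 0.0196 by edgeR, 6.52 CPM in ntCZC and 673 in tissue), the cyclooxygenase Ptgs2 (-5.93 ± 0.76, adjusted p = 0.00706), the adhesion gene Vcam1 (-5.81 ± 0.87, adjusted p = 0.018) and Itgal (-3.71 ± 0.66, adjusted p = 0.027) completed the named genes with S100a9 (1 and 1896 UMIs). Without tissue wt library 5 the fitted difference in S100a9 changed sign (log2 1.65, not called), with 1 female tissue library (wt 4, at 0 CPM) left in the fit with sex as a covariate, although S100a9 stood at 178 to 2249 CPM in the 5 male tissue libraries and at 0 to 2.08 in the 3 ntCZC libraries.

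The genes of the large peritoneal macrophage list were not among those called. Of 20 tested, 0 passed in either direction, with a median log2 of 1.32. Alox15 averaged 1897 CPM in ntCZC and 306 in tissue (2.58 ± 1.89, SE, adjusted p = 0.472 by edgeR), Icam2 589 and 138 (3.16 ± 0.85, adjusted p = 0.0932) and Gata6 66.8 and 17.2 (2.17 ± 1.11, adjusted p = 0.3). Among the alternatives run, Icam2 was called in 6 and not in 14, Cxcl13 in 3 and not in 17, Alox15 in 2 and not in 18, and Gata6 in 1 and not in 18. The adhesion list gave 2 lower (Vcam1, Itgal) of 14 and the others 0. The count of calls was 0 without ntCZC Nalcn-het 3, without Nalcn-null 4 or without tissue wt 5, and 9 without Nalcn-null 1. It was 6 without Scrublet doublets and 707 without sex in the model. The 3 ntCZC libraries were all female and the tissue ones 2 female and 5 male.

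Between genotypes 1 gene was called in the selected ntCZC barcodes, Arg1, which encodes arginase 1, an enzyme that turns arginine into ornithine (chr10:24915221-24927484, minus strand). It stood at 265, 405 and 318 CPM in Nalcn-het libraries 1 to 3, and at 4.16, 0, 0 and 10.1 CPM in Nalcn-null libraries 1 to 4. The groups did not overlap. The means were 329 ± 70.5 (SD, n = 3) and 3.57 ± 4.79 (SD, n = 4), and in Nalcn-null it was lower by a log2 difference of -5.88 ± 0.51 (SE, adjusted p = 0.00056 by edgeR, sex as a covariate). It was 1 gene of 2549 tested (0.0392% lower and 0.0% higher), and 209 had an unadjusted p under 0.05.

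Arg1 lay in some of the Nalcn-het barcodes. It was seen in 3 of 9 in library 1, where 1 barcode held 40 of 48 UMIs, in 6 of 9 in library 2 (50 UMIs) and in 18 of 43 in library 3 (142 UMIs). In Nalcn-null it was seen in 2 of 46, 0 of 8, 0 of 5 and 3 of 16. The 2 selected barcodes of Nalcn-het library 4 and the 2 of wt library 1 held 0. In the other Csf1r+ barcodes it stood at 2.44, 0 and 78.6 CPM in Nalcn-het 1 to 3 and at 0 in Nalcn-null 1 to 4. Nalcn-het libraries 1 and 2 were male and 3 female, and Nalcn-null library 2 male and the rest female.

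The call held with 3 or more markers required (-5.49, adjusted p = 0.00228 by edgeR) and with the replicate number as a block (-6.38, adjusted p = 0.0341), and without Nalcn-het library 3 it was not made (-9.08 ± 1.35, adjusted p = 0.177). In tissue Arg1 stood at 2.01, 1.83, 8.60, 18.8 and 103 CPM in wt, 0 and 244 in Nalcn-het and 30.3 and 0 in Nalcn-null, and 11 of the 13 UMIs of Nalcn-het library 2 lay in 1 barcode. There the genotypes overlapped.

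**Figure D5:**
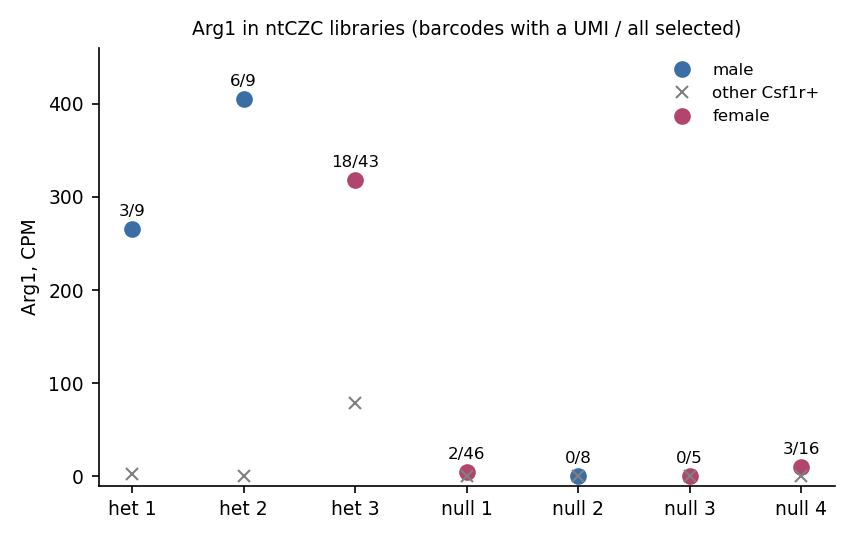
Arg1 level (CPM) in the selected barcodes of each ntCZC library with 5 or more of them, coloured by sex label, with crosses for the other Csf1r+ barcodes of the same library and the number of selected barcodes with an Arg1 UMI beside each point. Nalcn-het libraries lie at 265 to 405 CPM and Nalcn-null at 0 to 10.1.

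No other gene was called between Nalcn-null and Nalcn-het in this fit. Of 18 large peritoneal macrophage genes tested 0 were called, with a median log2 of 0.45, and every other list gave 0. Gata6 averaged 54.5 ± 28.8 CPM (SD, n = 4) in Nalcn-null and 67.1 ± 40.4 (SD, n = 3) in Nalcn-het, while the fitted Nalcn-null minus Nalcn-het difference, with sex as a covariate, had the opposite sign (log2 0.14 ± 0.48, SE, not called), and Cxcl13 3435 ± 2346 and 2019 ± 1715 (0.53 ± 0.63). Retnla stood at 7791, 227 and 7376 CPM in Nalcn-het and at 164, 75.8, 16.6 and 473 in Nalcn-null, with overlap (-5.22 ± 1.03, SE, adjusted p = 0.23 by edgeR). The mannose receptor Mrc1 stood at 166, 121 and 238 CPM and at 14.6, 59.0, 49.9 and 20.3, without overlap but not called (-2.73 ± 0.49, SE, adjusted p = 0.145 by edgeR). Retnla was called without Nalcn-het 2 and Mrc1 without Nalcn-null 2, and both with no filter on low counts, but neither under the other alternatives run. In tissue, Nalcn-het and Nalcn-null against wt (2 against 5 libraries) gave 0 of 3186 genes (0.0% in either direction), with 244 at an unadjusted p under 0.05 and 5 called by DESeq2, and 0 of 17 large peritoneal macrophage genes.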

How the data were processed

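The authors deposited filtered gene by barcode matrices of raw UMI counts per library, made with Cell Ranger (the matrices name version 3.0.2 and the submitters' processing notes 2.1.1) on mm10, with 31053 genes. These counts were used as deposited. The selected barcodes, gene lists and comparisons were chosen with earlier results of these data known. UMIs of selected and of other Csf1r+ barcodes were summed per library and tested across genes with edgeR 4.0.16 (TMM, filterByExpr, quasi-likelihood, Benjamini-Hochberg, threshold 0.05) under R 4.3.3, in libraries with 10 or more selected barcodes, with library as a block (selected against other) or sex as a covariate. Since 1 Nalcn-het library reached 10, Nalcn-null against Nalcn-het used 5. The 8 genes of the gates were left out. DESeq2 1.42.0 was an alternative. Genes named beyond the lists were up to 10 per direction, called, at 50 CPM or more, with the same sign in every library or groups that did not overlap. Gm, Rik, mitochondrial and ribosomal genes were not named. Shares were compared by exact permutation over libraries (Python 3.11.15, scipy 1.17.1). Coordinates are GRCm38 (GENCODE M21, 30934 IDs matched). Scrublet (scanpy 1.11.5, expected rate 0.8% per 1000 barcodes, at most 25%) was run on tissue libraries only. Each test across genes was first tested on simulated data. Replicate numbers did not pair Nalcn-null with Nalcn-het libraries by their labels or shares. Values of some genes are not reported here.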

Additional observations from a re-analysis of the deposited data

Results flagged for a closer look

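Of 57 groups of 4 or 5 libraries tested, 9 held a library far from the rest. Chance gives about 1 in 20 groups where groups are independent. These groups shared libraries and barcodes, so no excess over chance is read from the 9. The share of selected barcodes was 11.7% in tissue wt library 5 (1.26% to 3.53% in the other wt libraries). With 3 or more markers required it was 1.68% (1.72% in wt 3), and cut to 1000 UMIs 0% (4.31% in wt 3). Tissue wt library 5 also stood apart in Icam2 (12.9 CPM against 145 to 197), Saa3 (12632 against 12.1 to 1956), Vsig4 (608 against 28.1 to 188) and Arg1 (103 against 1.83 to 18.8). Rarb was 43.0 CPM in tissue wt library 3 (0 to 10.98 in the others), and Adgre1, which encodes the macrophage antigen F4/80, 752 CPM in tissue wt library 4 (62.3 to 258). In ntCZC Nalcn-null, Selp was 699 CPM in library 2 (368 to 399) and Apoc1 139 CPM in library 1 (0 to 8.43). Selp is a gene of the rule, so its level only describes the choice.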

How the results depend on the processing

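The higher share in ntCZC than in tissue kept its direction under the alternatives tried and its side of the threshold in each but 1, the mean within genotype (13.9 points, exact permutation p = 0.11). It was 9.96 points as a percent of all passing barcodes and 13.3 to 20.99 with 1 library left out. Nalcn-null minus Nalcn-het reversed to 1.70 as a percent of passing barcodes and to 4.43 after cutting to 1000 UMIs, and ran from -11.7 to 9.24 with 1 library left out (3.11 without Nalcn-null 2, 0.649 without Nalcn-null 4, 9.24 without Nalcn-het 3). With replicate numbers as a block it was -3.13 (exact permutation p = 0.875). With 1 library left out, Nalcn-het and Nalcn-null minus wt lay between 17.5 and 26.3 for ntCZC, and between -3.31 and -0.712 for tissue.

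Counts of called genes moved as follows, and where no value above shows a cause it was not tested. Selected against other in ntCZC (532) gave 1124 with no filter on low counts, 1172 and 285 with at least 5 and 20 selected per library, 63 at 1000 UMIs, and 0 to 723 with 1 library left out (0 without Nalcn-null 1, 285 without Nalcn-null 4). In tissue (273) it gave 534 by DESeq2, 1225 unfiltered, 69 without Scrublet doublets, 171 with at least 20, 37 at 1000 UMIs and 86 to 570 with 1 library left out (86 without wt 1, 93 without wt 3, 117 without Nalcn-null 2, 157 without wt 4, 570 without wt 5). ntCZC against tissue (59) gave 248 by DESeq2, 366 unfiltered, 152 with 3 markers, 169 without F5 and Selp, 6 without doublets, 538 and 882 with at least 5 and 20, 707 without sex, 23 without libraries lacking Prg4 and 0 to 118 with 1 library left out (118 without Nalcn-het 1 of tissue, 23 without wt 4). Nalcn-null against Nalcn-het (1) gave 3 by DESeq2, 78 unfiltered, 1 with the replicate block and 0 to 3 with 1 library left out. Tissue genotype (0) gave 5 by DESeq2, 179 unfiltered, 1 without sex and 0 to 14 with 1 library left out (14 without Nalcn-null 2). S100a9 reversed in ntCZC against tissue (1.65 without wt 5, 1.53 without libraries lacking Prg4, and -10.53 to 1.65 with 1 library left out). In Nalcn-null against Nalcn-het the uncalled Gata6 reversed to -0.023 by DESeq2, -0.22 with the replicate block and as low as -0.48 with 1 library left out (-0.48 to 0.43), and Cxcl13 to -0.039 without Nalcn-null 2 (-0.039 to 1.21). Not run, for want of libraries, were 3 markers and at least 20 for tissue genotype and at least 20 for Nalcn-null against Nalcn-het. Depth limits low genes such as Gata6, and n = 3 to 7 libraries limits every count.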

Other observations

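In the 2 tissue libraries whose title and strain named different genotypes, the selected barcodes were 8 of 614 (1.30%) in the first and 8 of 1638 (0.488%) in the second. Prg4 stood at 759 and 1340 CPM there, within the range of the tissue libraries with Prg4. Arg1 stood at 244 CPM in the first, with 18 of its 19 UMIs in 1 barcode.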
